A study of Sus scrofa with 4 samples.

Results

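miR-210 was followed in small RNA from exosomes of umbilical cord blood of newborn Yorkshire piglets. Every row of the 4 deposited tables whose name, without species prefix and end annotation, reads miR-210 was taken, whichever arm or species it is named for. The rule found 4 rows among 664 rows in all. No row was lost to a filter, and reads were summed over the rows.

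The 4 libraries came from piglets with intrauterine growth restriction (IUGR), a failure of the fetus to reach its growth potential, and from normal littermates. Cord blood was taken at birth, either out of the umbilical vein, which brings oxygenated blood from the placenta, or out of the umbilical artery, which returns blood from the fetus, so the libraries are IUGR vein, normal vein, IUGR artery and normal artery. RNA of 3 piglets was pooled for each, and a condition in a vessel has 1 library and no replicate. The sample labels name the vessel, and the condition was read from the letters I and N of the table columns.

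miR-210 is a hypoxia-induced microRNA: in human and mouse cells the oxygen-sensing factor HIF-1 activates its transcription when oxygen is low. It represses ISCU, an iron-sulphur cluster scaffold protein of mitochondria, and EFNA3, a ligand that restrains vessel sprouting. The main product of its hairpin is the 3p arm, the other arm being 5p, and an increase has been reported in human placentas in preeclampsia and in erythroid differentiation. In the RefSeq annotation of the pig assembly Sscrofa11.1 the MIR210 gene lies between RASSF7 and PHRF1. The files follow Sscrofa10.2, so no position is given.

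The sequences of all 4 rows are shown because the libraries differed in which of them they held. They are copied from the deposited tables, which write T for U, and run 5′ to 3′ with the seed, bases 2 to 8, in capitals. A seed is the stretch that guides a microRNA to its target messenger RNAs.
pig-named row (3p arm): cTGTGCGTgtgacagcggctga
opossum-named 3p row of 22 bases: cTGTGCGTgtgacagcggctat
opossum-named 3p row of 21 bases: cTGTGCGTgtgacagcggcta
opossum-named 5p row: aGCCACTGactaacgcacattg

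The 3 rows of the 3p arm share their seed and their first 20 bases, and differ at the 3′ end. Counted from the 5′ end of the pig-named row, the 22-base opossum-named row carries G21A and A22T, and the 21-base row carries G21A and lacks the last base. Of the 664 rows, 3 had the 3p seed, all named miR-210, and 1 had the 5p seed, so no other miRNA of the tables shared a miR-210 seed. The longest stretch of the 3p row that is complementary to the 5p row ran over bases 2 to 8, that is its seed, and met bases 13 to 19 of the 5p row. No other row held the same sequence as a miR-210 row, and none of the 4 rows had reads split into fractions.

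The pig-named row was the one row with reads in every library, at 5 in IUGR vein, 8 in normal vein, 34 in IUGR artery and 9 in normal artery. The 5p row had 0, 1, 12 and 1 reads in the same order. The 22-base opossum-named 3p row had 21 reads in IUGR artery, and the 21-base row had 3 there. Neither had a read in IUGR vein, normal vein or normal artery. IUGR artery thus held all 4 rows, the other artery library and normal vein 2 each, and IUGR vein 1.

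**Figure D1:**
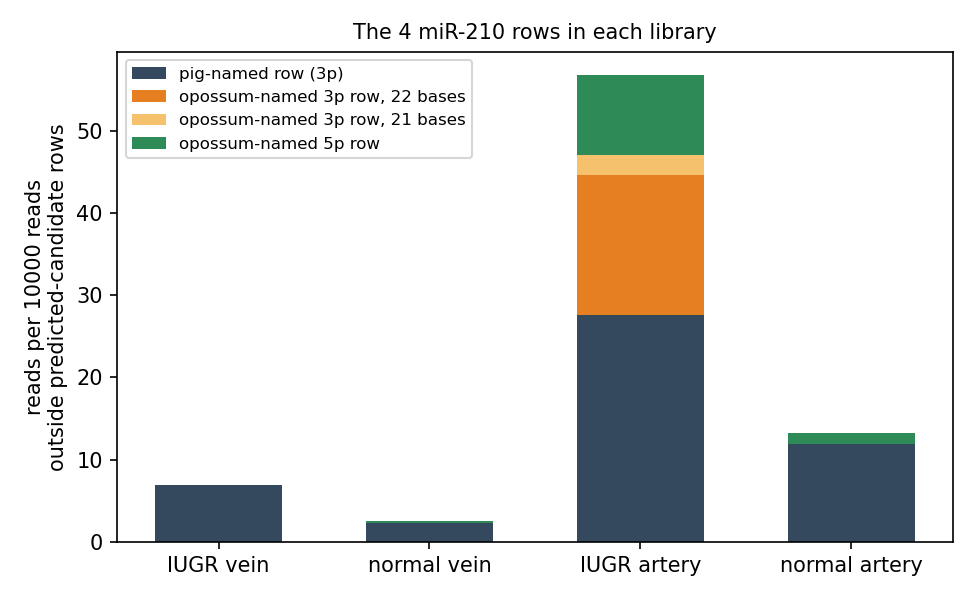
Stacked bars give the level of each of the 4 miR-210 rows, in reads per 10000 reads outside predicted-candidate rows, in the 4 libraries (1 library per bar, no error drawn). The opossum-named 3p rows, 21 and 3 reads, appear in the IUGR artery bar alone.

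As a level, the 22-base opossum-named 3p row stood at 17.0 reads per 10000 reads in IUGR artery, with an exact (Clopper-Pearson) 95% binomial interval of 10.5 to 26.0. Reads here are those outside PC- rows, the predicted candidates of the tables. A count of 0 allows up to 4.18 reads per 10000 in IUGR vein, 0.849 in normal vein and 3.99 in normal artery, taking 3 counts as the limit. The exact 95% intervals for these counts of 0 reach further, to 5.14, 1.04 and 4.90 in the same order. Outside the predicted candidates, 22 rows occurred in IUGR vein only, 111 in normal vein only, 41 in IUGR artery only and 56 in normal artery only. Of these, the 22-base opossum-named 3p row was the single one with at least 20 reads. It passed that minimum, with 21 reads, through IUGR artery alone, so this is a description only. All intervals and limits cover counting error only: PCR copies could not be told from independent molecules.

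Within the 3p arm, the opossum-named ends made up 24 of 58 reads in IUGR artery, or 41.4% (exact 95% interval 28.6 to 55.1%). The other libraries held 22 reads of the 3p arm together and none with these ends, which allows a share of up to 13.6%, again taking 3 counts as the limit and not an exact interval. Taken singly, the limit was 60.0% in IUGR vein, 37.5% in normal vein and 33.3% in normal artery. Each limit lay above the lower end of the IUGR artery interval. Such overlap is not a test, and whether a single library differed from IUGR artery was not tested. Rows named for species other than pig took 51.4% of miR-210 reads in IUGR artery. In that library 58 names had a pig-named row and at least 20 reads, their median share of such rows was 0%, and 1 of them had a higher share than miR-210.

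The 5p arm made up 12 of 70 miR-210 reads in IUGR artery, or 17.1% (exact interval 9.18 to 28.0%). The other 3 libraries held 2 reads of it among 24, or 8.33% (1.03 to 27.0%). These intervals overlap, and a difference in the balance of the arms was not tested. All 5p reads fell on the opossum-named row, as no 5p row was named for pig. Whether the opossum-named rows, 3p or 5p, hold pig sequences was not checked against a reference.

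Summed over its rows, miR-210 was most abundant in IUGR artery and least abundant in normal vein. It had 5 reads in IUGR vein, 9 in normal vein, 70 in IUGR artery and 10 in normal artery. The 4 libraries held 94 miR-210 reads together, 74.5% of them from IUGR artery. Levels are therefore precise for that library and coarse for the others.

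Per 10000 reads, the level was 6.97 in IUGR vein (exact 95% interval 2.26 to 16.3) and 2.55 in normal vein (1.17 to 4.84). It was 56.8 in IUGR artery (44.3 to 71.7) and 13.3 in normal artery (6.37 to 24.4). The interval of IUGR artery overlapped none of the others. In falling order the libraries ran IUGR artery, normal artery, IUGR vein and normal vein. Between neighbours in this order, normal artery over IUGR vein was 1.91-fold with an interval of 0.594 to 7.11, and IUGR vein over normal vein 2.73-fold with an interval of 0.720 to 9.09, so neither pair was apart beyond counting error. Fewer vesicles that carry miR-210 and fewer copies per vesicle cannot be told apart in such pools.

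**Figure D2:**
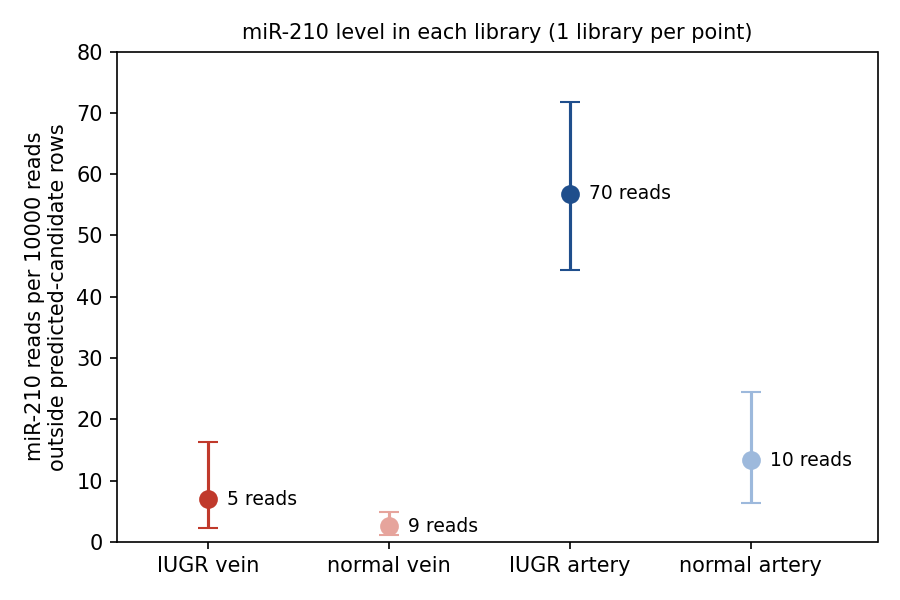
Points give the summed miR-210 level in reads per 10000 reads outside predicted-candidate rows, bars the exact 95% binomial interval (counting error only), for 1 library each. IUGR artery, with 70 reads, lies at 56.8, and the other libraries, with 5, 9 and 10 reads, lie at 6.97, 2.55 and 13.3.

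The tables held 16218 reads in IUGR vein, 40691 in normal vein, 20144 in IUGR artery and 13749 in normal artery. Predicted-candidate rows took 55.8, 13.2, 38.8 and 45.3% of them in the same order, which left 7175, 35317, 12327 and 7527 reads as denominators. The leading names also differed between the libraries. The red-cell markers miR-451, miR-144, miR-486 and miR-16 took 50.5, 46.2, 10.7 and 41.5% of these reads in the same order. Most of this was miR-451, at 4325, 3585, 866 and 3196 reads per 10000. Between the vein libraries the members went opposite ways, miR-451 and miR-144 being higher in IUGR vein, miR-486 and miR-16 lower. Between the artery libraries all of them were lower in IUGR artery. The liver markers miR-122, miR-192 and miR-194 took 2.27, 0.159, 25.7 and 2.07%. The endothelial marker miR-126 took 1.67, 0.657, 2.43 and 0.810%. None of the red-cell markers was at 0 in any library, and of the liver markers miR-194 had reads under its own name in IUGR artery alone, the rows miR-194a and miR-194b being separate names.

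In the vein, the question was whether miR-210 differs between IUGR and normal piglets. It had 5 reads in IUGR vein and 9 in normal vein, or 6.97 against 2.55 reads per 10000. The ratio was 2.73-fold, a log2 ratio of 1.45 with an exact conditional 95% interval of -0.47 to 3.18, which includes 0. With the predicted-candidate rows kept in the denominator the ratio was 1.39-fold, since these rows took 55.8% of IUGR vein and 13.2% of normal vein. A difference between the vein libraries was therefore not detectable at this depth.

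Among 127 names with at least 20 reads over the 4 libraries, 32 were at least 2-fold higher in IUGR vein (25.2%) and 24 at least 2-fold lower (18.9%), on log2 of reads per 10000 plus 1. With all reads in the denominator these counts were 10 and 46. On that scale, main denominator, miR-210 had a log2 ratio of 1.17 against a median of 0.16 over all names, and 26 of the other names were at least as high. The authors' deposited table listed 2 miR-210 rows for these libraries and marked neither as different, and the share of all listed rows so marked was not counted.

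In the artery, miR-210 was higher in the IUGR library, with 70 reads in IUGR artery and 10 in normal artery. Its level was 56.8 against 13.3 reads per 10000, 4.27-fold with an interval of 2.19 to 9.30, or 2.10 on the log2 scale (1.13 to 3.22). The interval excludes 0, and it describes the reads of 2 libraries, not the spread between piglets. The pig-named row alone was 2.31-fold higher, with 34 against 9 reads and an interval of 1.08 to 5.47. The 5p row had 12 reads against 1, a ratio of 7.33 with an interval of 1.08 to 313. The 22-base opossum-named 3p row had 21 reads against 0, which is 4.27-fold with a floor of 3 counts in normal artery. That value leaves out the counting error of the 21 reads. The rows not named for pig thus carried 36 of the 70 reads in IUGR artery and 1 of the 10 in normal artery. The authors' deposited table marked 4 of 4 miR-210 rows as different between the artery libraries. Among them was the 21-base row, with 3 reads against 0. The share of all listed rows that they marked was not counted, so 4 of 4 has no background to be read against.

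Many names moved as far between the artery libraries. Of the 127 names, 40 were at least 2-fold higher in IUGR artery (31.5%) and 54 at least 2-fold lower (42.5%). miR-210 had a log2 ratio of 2.02 with 1 read per 10000 added, against a median of -0.57, and 29 of the other names were at least as high. Red-cell markers took 10.7% of reads in IUGR artery and 41.5% in normal artery, and liver markers 25.7 and 2.07%. The part of these shares in the miR-210 ratio was not tested. Without miR-451, miR-486 and miR-122 in the denominator the ratio was 3.82-fold.

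Set against the markers, miR-210 had 53.1 reads per 1000 red-cell marker reads in IUGR artery and 3.20 in normal artery. Against miR-126, it had 234 reads per 1000 in IUGR artery and 164 in normal artery. Against the liver markers, it had 22.1 per 1000 in IUGR artery and 64.1 in normal artery. As log2 ratios of IUGR artery over normal artery these were 4.05 for red cells (approximate 95% counting interval 3.09 to 5.01), 0.51 for miR-126 (-0.52 to 1.55) and -1.54 for liver (-2.52 to -0.56). Relative to miR-126 the artery libraries were therefore not apart beyond counting error. In the vein the same figures were 1.38 in IUGR and 0.551 in normal for red cells, 41.7 and 38.8 for miR-126, and 30.7 and 161 for liver, the last on 163 and 56 liver reads.

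The IUGR over normal ratio was larger in artery than in vein by 0.64 on the log2 scale, with an approximate 95% interval of -1.20 to 2.49 from counting error. The vessels were therefore not apart in this ratio beyond counting error, and with 1 library per cell no test across samples was possible.

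**Figure D3:**
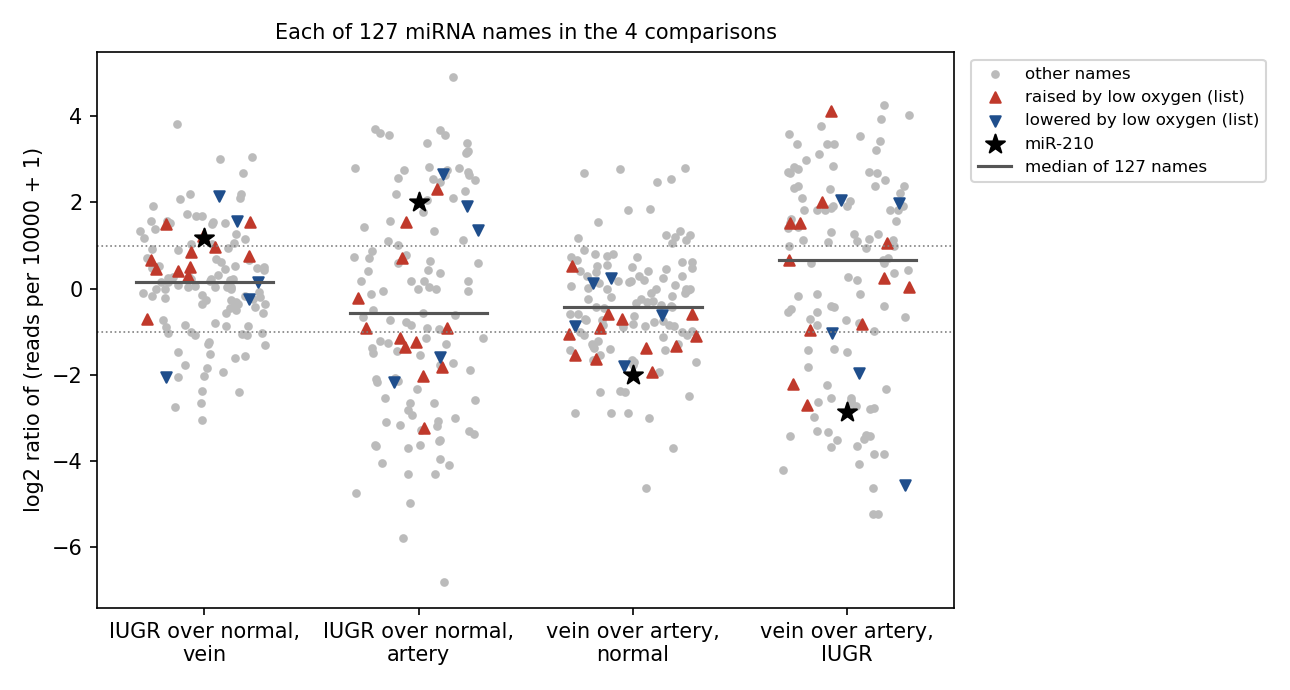
Each point is 1 of 127 miRNA names, its height the log2 ratio of reads per 10000 plus 1 in the comparison on the x axis; grey lines mark the medians and dotted lines a 2-fold difference. The miR-210 star lies at 1.17 and 2.02 for IUGR over normal in vein and artery, and at -2.01 and -2.86 for vein over artery in normal and IUGR piglets, with other names beyond it in each.

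Between the vessels, miR-210 was lower in vein than in artery in both conditions. In normal piglets it had 9 reads in vein and 10 in artery, or 2.55 against 13.3 reads per 10000, a log2 ratio of -2.38 with an interval of -3.86 to -0.93. This is 5.21-fold lower in vein, and 3.29-fold with the predicted-candidate rows in the denominator. In IUGR piglets it had 5 reads in vein and 70 in artery, or 6.97 against 56.8 reads per 10000, a log2 ratio of -3.03 (-4.69 to -1.74), 8.15-fold lower in vein. The pig-named row alone was 5.28-fold lower in vein in normal piglets, with 8 against 9 reads, and 3.96-fold lower in IUGR piglets, with 5 against 34. Each interval lay below 0, and the denominators differed, with 35317 reads in normal vein and 7527 in normal artery. Liver markers also took a smaller share in vein, 0.159% against 2.07% in artery in normal piglets and 2.27% against 25.7% in IUGR piglets, and their part in the miR-210 ratios was not tested.

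In normal piglets, 37 of 127 names were at least 2-fold lower in vein (29.1%) and 15 at least 2-fold higher (11.8%), and with all reads in the denominator 20 and 33. In IUGR piglets, 38 were at least 2-fold lower in vein (29.9%) and 58 at least 2-fold higher (45.7%), and with all reads 45 and 45. miR-210 had log2 ratios of -2.01 and -2.86 with 1 read per 10000 added, against medians of -0.42 and 0.66, and 10 and 19 of the other names were at least as low. The authors' deposited tables marked 1 of 2 listed miR-210 rows as different between the vessels of normal piglets, and 4 of 4 between those of IUGR piglets. The latter again include the 21-base row, with 3 reads in artery and 0 in vein. The share of all listed rows so marked was not counted.

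The vessel is the one factor that the labels replicate, with 2 libraries each. Over all 4 libraries, miR-210 was lower in vein by a log2 difference of -3.22 with a standard error of 1.39, and edgeR's quasi-likelihood test gave a Benjamini-Hochberg adjusted p of 0.38 over 127 names. The direction held in both conditions, and the test did not pass the threshold of 0.05. No name was called (0%), while 14 of 127 had an unadjusted p under 0.05. DESeq2 on the same counts gave -3.17 with an adjusted p of 0.0461 and called 12 names, all lower in vein. Without IUGR artery the edgeR difference was -1.41 with an adjusted p of 0.991, and without normal vein it was -2.57 with an adjusted p of 0.988. Such a fit leaves 1 library in a vessel, which is assumed to vary like the 2 of the other, so these p-values say little about stability. The replicates of a vessel are an IUGR and a normal library. The edgeR test over all 4 libraries thus set the vessel difference against a spread that includes any difference between IUGR and normal.

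By rank, miR-210 stood at place 88 of 203 names with reads in IUGR vein, 124 of 283 in normal vein, 33 of 179 in IUGR artery and 80 of 229 in normal artery. In IUGR artery its 56.8 reads per 10000 lay just under miR-92a, at 57.2, and miR-146a, at 61.7. miR-107, at 51.4, and miR-486, a red-cell and muscle miRNA, at 45.4, lay just below it. In normal artery let-7d and miR-19a, at 14.6 each, stood just above its 13.3, and miR-194a and miR-194b, at 12.6 each and with the same reads shared between them, just below. In IUGR vein it was level with miR-130b and miR-186 at 6.97, above miR-378 at 6.27 and miR-128 at 5.58. In normal vein it was level with miR-127 and miR-378 at 2.55, above miR-222 and miR-380 at 2.27.

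The names most like miR-210 in profile were found by Euclidean distance of log2(reads per 10000 + 1), centred over the 4 libraries, among 126 other names. The nearest was miR-26a at a distance of 0.36, followed by miR-30c at 0.55, miR-146a at 0.58, miR-107 at 0.61 and miR-101 at 0.64, against a median of 3.61 over all names. With 4 libraries a likeness of this kind is a description, and all names of a library share its depth and denominator.

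miR-26a, a restrainer of cell proliferation and more abundant than miR-210 in each library, had 66.9 reads per 10000 in IUGR vein, 22.1 in normal vein, 439 in IUGR artery and 87.7 in normal artery. miR-146a, which dampens NF-kB signalling, had 4.88, 3.11, 61.7 and 9.96 in the same order. miR-107, a regulator of lipid and insulin metabolism, had 10.2, 4.72, 51.4 and 16.8. All 5 names were highest in IUGR artery and lowest in normal vein, as miR-210 was, which follows from their choice by nearness to its profile. The full order of miR-210 (IUGR artery, normal artery, IUGR vein, normal vein) was found in 19 of 127 names, or 15.0%, and 46 of 127 names were highest in IUGR artery.

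**Figure D4:**
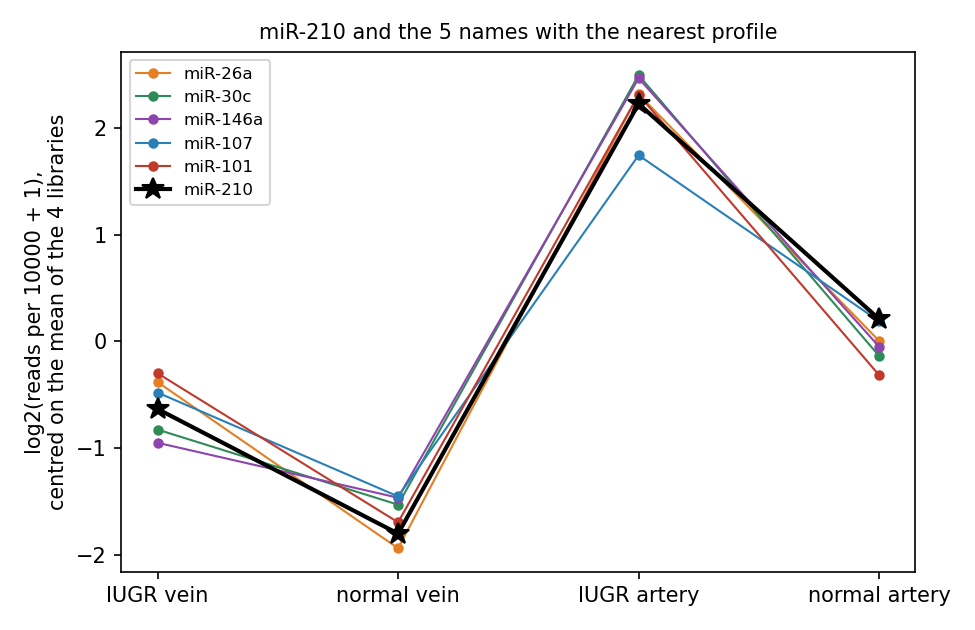
Points give log2(reads per 10000 + 1), centred on each name's mean over the 4 libraries, for miR-210 and the 5 names nearest to it; lines join the points of a name only to guide the eye. All 6 names are highest in IUGR artery and lowest in normal vein, which follows from the choice of the 5 by nearness. Their distances to miR-210 run from 0.36 for miR-26a to 0.64 for miR-101.

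Other miRNAs reported to respond to low oxygen in cultured cells were taken from a fixed list. Of 16 reported as raised, 15 were in the tables and 12 had at least 20 reads. miR-373 was not listed, and miR-181b, miR-181c and miR-155 had fewer reads. All 5 reported as lowered had at least 20 reads.

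In IUGR vein, 3 of the 12 raised-list miRNAs were at least 2-fold higher and none lower, where 25.2% of all names were higher and 18.9% lower. The median log2 ratio was 0.72 beside 0.16 over all names. With all reads in the denominator the median was -0.23 beside -0.66, with none higher and 1 lower. miR-26a had 66.9 reads per 10000 in IUGR vein and 22.1 in normal vein. miR-424, which stabilises HIF-1 in human endothelial cells, had 30.7 and 10.2. miR-27b, of the miR-23, miR-27 and miR-24 cluster, had 129 and 55.1. Of the 5 lowered-list miRNAs, 2 were higher and 1 lower, and with all reads in the denominator 1 and 2. miR-199a, a repressor of HIF-1 in rat heart cells, had 63.6 reads per 10000 in IUGR vein and 13.5 in normal vein. The other members past 2-fold rested on few reads, with 2 in IUGR vein and 1 in normal vein for miR-200b, and 0 in IUGR vein and 11 in normal vein for miR-20b, where a count of 0 allows more than the level in normal vein.

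In IUGR artery, 2 of the 12 raised-list miRNAs were at least 2-fold higher and 6 lower, where 31.5% of all names were higher and 42.5% lower. The median log2 ratio was -1.03 beside -0.57 over all names. With all reads in the denominator the median was -0.86 beside -0.39, with 2 higher and 5 lower. Without miR-451, miR-486 and miR-122 in the denominator, 2 were higher and 8 lower. miR-26a had 439 reads per 10000 in IUGR artery and 87.7 in normal artery, and miR-107 had 51.4 and 16.8. The lower ones were miR-23a, miR-24, miR-26b, miR-27a, miR-21 and miR-424. Of these, miR-26b rested on 7 reads in IUGR artery and 12 in normal artery. miR-21 had 69.0 reads per 10000 in IUGR artery and 244 in normal artery. miR-424 had 0.811 and 15.9, on 1 read in IUGR artery. Of the 5 lowered-list miRNAs, miR-20b, miR-199a and miR-200b were at least 2-fold higher in IUGR artery, and miR-17 and miR-20a, of the miR-17-92 cluster, lower. Few reads in normal artery underlie miR-200b, with 17 in IUGR artery against 1, and miR-20b, with 28 against 4. miR-199a had 130 and 49.6 reads per 10000.

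Between the vessels of normal piglets, 7 of the 12 raised-list miRNAs were at least 2-fold lower in vein and none higher, where 29.1% of all names were lower and 11.8% higher. The median was -1.08 beside -0.42 over all names. With all reads in the denominator, the median was -0.43 beside 0.20, 2 members being lower and 1 higher. In IUGR piglets, 2 were lower in vein, miR-26a and miR-107, and 5 higher, where 29.9% of all names were lower and 45.7% higher. The median was 0.46 beside 0.66, and with all reads in the denominator it was 0.03 beside 0.20, with 4 lower and 4 higher. Of the lowered list, miR-199a alone was at least 2-fold lower in vein in normal piglets, at 13.5 against 49.6 reads per 10000. In IUGR piglets miR-199a, miR-20b and miR-200b were lower in vein, and miR-17 and miR-20a higher. There miR-20b had 0 reads in vein and 28 in artery, and miR-200b 2 and 17. Over the 4 libraries none of the 17 listed miRNAs passed edgeR's test. miR-107 had a log2 difference of -2.49 with an adjusted p of 0.384, and miR-26a one of -2.87 with an adjusted p of 0.42.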

How the data were processed

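Exosomes were pelleted from cord plasma by filtration and ultracentrifugation, and TruSeq small RNA libraries were sequenced from 1 end over 36 bases, as the labels' protocols state. The build Sscrofa10.2 is named in the submitters' processing notes (aligner, counter and scaling: not given in the sources used here). Deposited raw columns hold estimated counts, with reads shared between rows split into fractions. The deposited normalized columns hold a signal equal to raw reads times a factor of 4.70 (IUGR vein), 1.90 (normal vein), 3.18 (IUGR artery) or 5.89 (normal artery), used here as an alternative. The authors' p-value and fold columns were not used, only which rows they marked as different.

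Tables were merged on name plus sequence, with 0 for rows that a table does not list. Rows were summed over species, arm and end variant into 347 names outside predicted candidates. Ratios of shares carry exact conditional binomial 95% intervals on whole reads; the difference of ratios and the ratios to marker reads carry a normal approximation on the log scale. Vein and artery were compared with edgeR 4.0.16 (quasi-likelihood, TMM, limma 3.58.1, R 4.3.3) on rounded counts of names with at least 20 reads, and with DESeq2 1.42.0 (local dispersion fit); the standard error was derived from the F statistic. Intervals were tested on simulated reads with counting error alone, and the fit on simulated counts with a spread set beforehand. Neither check covers the spread between the libraries studied here. Alternatives changed denominator, rows, pseudocount, filter, normalization, block and libraries.

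The miR-210 rows and the lists were chosen with earlier results of these data known. Named miRNAs were the miR-210 rows, list members with at least 20 reads, the 5 nearest profiles, the neighbours in abundance and the cell type markers. The platelet and myeloid markers (miR-223, miR-142, miR-191) took 2.49, 5.44, 1.27 and 3.14% of reads in IUGR vein, normal vein, IUGR artery and normal artery, and the lymphocyte marker miR-150 0.195, 0.419, 0.0973 and 0.159%. The members of the former did not move together. In IUGR artery against normal artery miR-223 had 13.0 against 110 reads per 10000 and miR-191 10.5 against 112. miR-142 had 104 against 91.7.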

Additional observations from a re-analysis of the deposited data

How the results depend on the processing

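The miR-210 ratios kept their direction under every alternative that gave a value: another denominator, the authors' normalized reads, the pig-named row alone, the 3p arm alone (chosen after seeing the data) and reads rounded row by row. One value left its counting interval: from the rows not named for pig alone, the log2 ratio of IUGR artery over normal artery was 4.46, on 36 reads against 1. Those rows gave no value for IUGR over normal in vein or for vein over artery in normal piglets, with 3 reads or fewer on both sides.

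A pseudocount of 10 lowered the names at least 2-fold apart to 28 (IUGR and normal vein) and 23 (vein and artery, normal). A minimum of 5 reads, which tests more names, raised them to 146 (IUGR and normal artery) and 79 (vein and artery, normal). Over the 4 libraries, DESeq2 called 12 names where edgeR called 0, and gave miR-210 -3.17; the cause was not tested. With the condition letter of the columns as a replicate block, the edgeR difference for miR-210 was -2.71 with an adjusted p of 0.454, and no name was called. Deviations of the IUGR vein and IUGR artery libraries from their vessel means correlated at 0.529. With 2 libraries per vessel this equals the correlation of the IUGR over normal ratios between vessels. It cannot tell shared piglets from a condition difference that both vessels share. Only the column letters pair the libraries, and whether both vessels came from the same piglets was not settled by the labels. Leaving out 1 library in turn gave differences from -4.10 to -1.41 with 0 names called. Depth limits the vein and normal artery values, which rest on 5 to 10 miR-210 reads each.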
